A study of Mus musculus with 2 samples.

Results

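The olfactory receptor (Olfr) genes of the mouse were examined as regions of chromatin in hematopoietic stem cells of the bone marrow. The members were the autosomal protein-coding genes of the mm10 annotation (GENCODE M21) with a symbol that starts with Olfr, taken as the gene body with 1 kb on either side. There were 1128 of them among 20807 autosomal protein-coding genes. A further 7 such genes on the X chromosome and 271 autosomal Olfr genes of other annotation classes were not members, and 40 members carry a symbol with the ending -ps although they are annotated as protein-coding. Members within 200 kb of each other were joined, which gave 60 units, namely 13 single genes and 47 clusters, of which 23 with 10 or more genes held 1000 members. The study compared hematopoietic stem cells (HSCs) of female C57BL/6 mice that were 10 weeks old (young HSCs) and 20 months old (aged HSCs) by single-cell ATAC-seq, in which a transposase cuts open DNA and each DNA fragment carries a barcode of its cell. Both were sorted from bone marrow as lineage-negative cells that were positive for Sca-1, c-kit and CD150 and negative for CD34, CD48, Flt3 and the marker labelled IL-7, for which the methods of the study name an antibody against the receptor IL-7Rα. There was 1 library per age, so no test between the ages was possible, and all intervals below are 95% intervals that cover counting error alone.

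Olfactory receptors are G protein-coupled receptors of sensory neurons in the nose. Each mature olfactory neuron expresses a single allele of a single receptor gene, while the other receptor genes are packed into constitutive-type heterochromatin that carries trimethylated H3K9 and H4K20. The genes lie in large AT-rich clusters with few other genes, and in most other tissues the clusters are silent. In olfactory neurons, enhancers bound by Lhx2, Ebf factors and Ldb1 activate the chosen gene.

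Cells with 3000 to 20000 fragments in the peaks of the authors were used, which left 4887 of 5028 called young cells and 3405 of 3694 called aged cells, with a median of 9890 and 11020 fragments per cell. They held 49049364 young and 37843997 aged autosomal fragments. The median share of fragments in peaks was 83.0% in young and 81.0% in aged cells, and 59.8% and 55.0% of the fragments were shorter than nucleosomal DNA. Barcodes of 26 used cells occurred in both libraries. Promoters of 8 HSC marker genes had a median of 11.4 fragments per 1000000 in young and 11.6 in aged HSCs. The median over promoters of all 20807 autosomal protein-coding genes was close to this, at 10.97 and 11.18. The median of the HSC markers thus did not set them apart from other genes. Single genes spread widely within lists, in young HSCs from 0.367 to 36.2 for HSC markers and from 0.367 to 11.4 for olfactory neuron genes. The corresponding medians of 4 T cell genes were 0.51 and 0.22, those of 4 B cell genes 1.56 and 1.22, those of 4 myeloid genes 1.57 and 1.56, those of 4 erythroid genes 6.99 and 6.32, those of 4 megakaryocyte genes 24.2 and 21.9, those of 4 genes of surface markers that the sort selected against 7.82 and 6.28, those of 4 olfactory neuron genes 5.92 and 5.75, and those of the 1128 members 0.082 and 0.079.

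Stretches of DNA inside the clusters that results turned on are given first, as 300 bases of the plus strand of mm10 around the highest density of fragment ends. They were chosen after their values were seen, as the most accessible stretch outside other genes, 2 stretches with more fragments in aged HSCs, and 1 with fewer. Capitals mark matches on either strand to motifs of the TATA box, GATA factors, RUNX, AP-1 and PU.1, whose letters are given with the motif shares further below. None of the 4 sequences held a run of 50 bases that occurs elsewhere on the autosomes. Bases masked as repeats in the reference made up 52% of the first, 19% of the second, 68.3% of the third and 13.7% of the fourth.
Element upstream of Olfr646: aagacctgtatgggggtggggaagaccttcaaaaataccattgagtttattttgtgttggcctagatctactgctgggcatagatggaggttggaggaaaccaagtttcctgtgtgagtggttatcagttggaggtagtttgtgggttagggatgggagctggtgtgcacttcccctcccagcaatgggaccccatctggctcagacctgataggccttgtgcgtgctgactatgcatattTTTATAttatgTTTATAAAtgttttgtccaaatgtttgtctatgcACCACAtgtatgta
Element in the cluster from Olfr16 to Olfr418: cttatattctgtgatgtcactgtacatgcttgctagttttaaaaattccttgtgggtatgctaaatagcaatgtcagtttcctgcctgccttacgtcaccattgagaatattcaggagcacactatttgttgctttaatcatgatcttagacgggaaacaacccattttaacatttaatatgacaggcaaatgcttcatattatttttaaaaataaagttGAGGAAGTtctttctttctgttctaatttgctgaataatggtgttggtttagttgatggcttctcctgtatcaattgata
Element in Olfr45: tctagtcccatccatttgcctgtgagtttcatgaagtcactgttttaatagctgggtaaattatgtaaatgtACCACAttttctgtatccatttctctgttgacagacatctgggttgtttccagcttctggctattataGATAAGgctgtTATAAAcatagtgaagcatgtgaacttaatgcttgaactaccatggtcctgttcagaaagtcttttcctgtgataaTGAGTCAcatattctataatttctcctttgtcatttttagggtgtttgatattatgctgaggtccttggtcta
Element between Olfr222 and Olfr223: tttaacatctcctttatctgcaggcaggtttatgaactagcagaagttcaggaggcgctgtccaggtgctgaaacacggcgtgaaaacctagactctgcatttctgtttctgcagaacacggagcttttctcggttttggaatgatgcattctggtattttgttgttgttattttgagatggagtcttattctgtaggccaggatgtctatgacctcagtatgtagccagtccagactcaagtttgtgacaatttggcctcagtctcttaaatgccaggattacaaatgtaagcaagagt
The first lies at chr7:104103945-104104244, in an intron of Olfr643 and at -0.779 kb from the start of Olfr646. The second lies at chr1:173037505-173037804, in no annotated gene and 87.2 kb from the start of Olfr16. The third lies at chr7:140688405-140688704, in an intron of Olfr45 and 6.60 kb from its start. The fourth lies at chr11:59584677-59584976, in no annotated gene and 8.46 kb from the start of Olfr223.

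The receptor genes were among the least accessible genes of HSCs at both ages. Their windows held 40213 young and 33256 aged fragments, which is 0.0847 and 0.0908 fragments per kb per 1000000 autosomal fragments (the unit of every level below). Other protein-coding genes had 0.698 and 0.686 on the same scale, and 93.4% of all autosomal protein-coding genes had a mean level above that of the median member. The median member had 14 young and 13 aged fragments in a window of 7.99 kb, and 1 member had none in either library. From the 5th to the 95th percentile of the members, the level ran from 0.0147 to 0.226 in young and from 0.0178 to 0.231 in aged HSCs. Gene deserts, stretches of over 500 kb without a gene, had 0.0486 and 0.0617. The density of the members was 1.74 times that of the deserts in young HSCs (1.73 to 1.76) and 1.47 times in aged HSCs (1.45 to 1.49). Against deserts of at least 1000 kb it was 2.64 and 1.94 times. This density pools the fragments of all members. The median level of single members was below that of the deserts of over 500 kb, at 0.0353 in young and 0.0422 in aged HSCs.

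**Figure D1:**
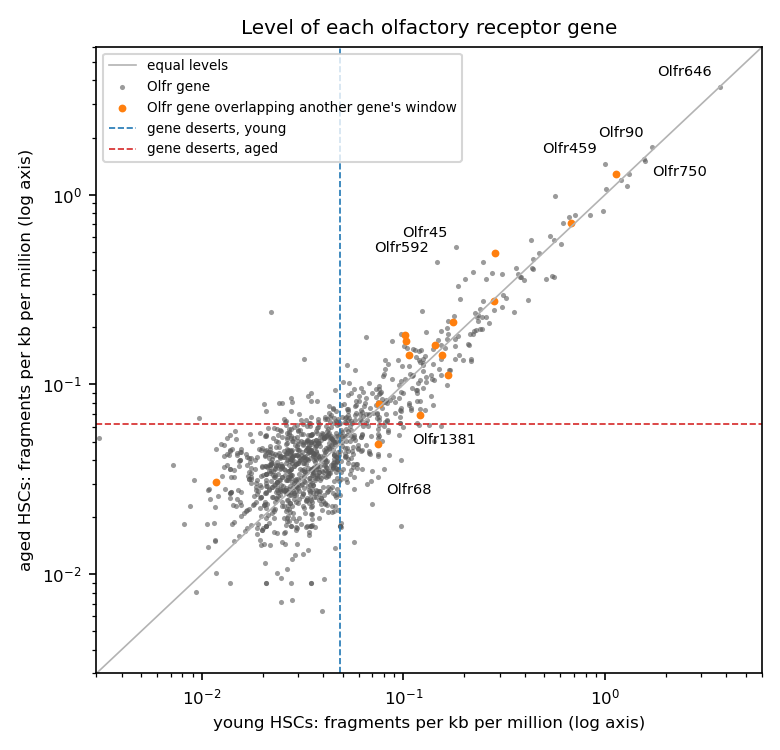
Level of each member in young (x axis) and aged (y axis) HSCs, in fragments per kb per 1000000 on log axes, with gene deserts as dashed lines and members that overlap the window of another gene in orange. Most members lie near or below the desert level, and a small arm with Olfr646 at 3.72 and 3.70 reaches the levels of other genes. The 6 members without a fragment in 1 or both libraries are not drawn.

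Member starts showed little of the accessibility that marks promoters of used genes. Fragment ends within the centre of the start were 1.65 times as dense as in the outer flanks in young and 1.63 times in aged HSCs, against 17.4 and 16.04 times at the starts of other protein-coding genes. These are GENCODE starts, which for most members differ from the RefSeq start, as given further below. At the 171 member starts on which both annotations agree within 500 bp, the centre was no denser than the flanks, with 0.780 times in young and 0.733 times in aged cells. Such starts of other genes had 21.3 and 19.6 times, and 916 RefSeq starts of members had 0.962 and 1.05 times. Fragments in members were also longer. Of fragments in members that overlap no other gene, 44.5% in young and 41.1% in aged HSCs were shorter than the DNA wrapped around a nucleosome. This was closer to gene deserts, with 40.1% and 38.7%, than to other genes, with 61.3% and 56.6%.

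The level of a member moved with its surroundings. Members within 10 kb of the start of a gene of another family had 0.396 in young and 0.407 in aged HSCs. At 10 to 50 kb the values were 0.147 and 0.144, at 50 to 200 kb 0.0648 and 0.0734, and beyond 200 kb 0.0383 and 0.0451, which is below the deserts of the same library. These bands included 15 members whose windows overlapped that of another gene, which alone had 0.418 and 0.436. The largest of these was Olfr56, with 5276 young and 4241 aged fragments, whose long annotated body extends among interferon-inducible GTPase genes. The other 1113 members had 0.0734 and 0.0789, and DNA between the members within clusters, outside all genes, had 0.0625 and 0.0690.

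Summed over all members, the share of fragments was slightly higher in aged HSCs, with 0.0820% of young and 0.0879% of aged autosomal fragments, a ratio of 1.07 (1.056 to 1.088). Other protein-coding genes had a ratio of 0.983. Gene deserts had 1.27 (1.263 to 1.280), so that relative to deserts the members had 0.843 times the share in aged HSCs, and the direction depends on the scale. Vomeronasal receptor genes, another large family of chemosensory receptors in clusters, had 1.16, and DNA between members had 1.10.

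The ratio moved with base composition in members as in DNA without genes. Members with under 36% GC had a ratio of 1.24 (1.196 to 1.286), those with 36 to 38% had 1.11, those with 42 to 44% had 0.975 (0.937 to 1.015), and those with 44% or more had 0.945 (0.906 to 0.985). The 10 kb bins without genes had 1.28, 1.25, 1.06 and 1.001 in the same bands. In each of the 6 bands the ratio of the members lay below that of the bins. By distance to other genes, the ratio was 1.03 under 10 kb, 0.984 at 10 to 50 kb, 1.13 at 50 to 200 kb and 1.18 beyond. The part of base composition in the summed ratio was not tested.

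**Figure D2:**
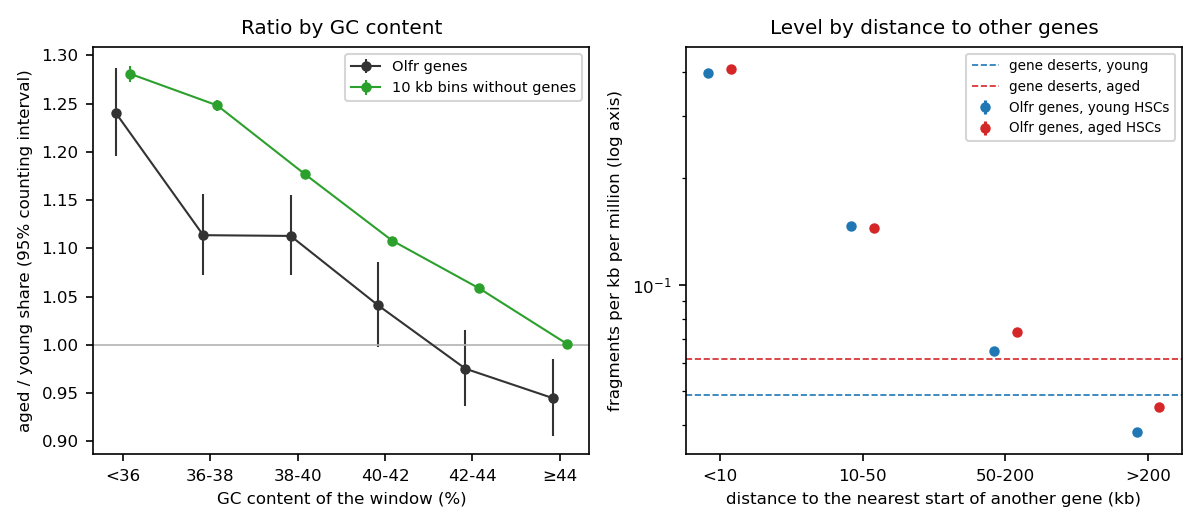
Left, ratio of aged to young share of fragments (y axis, with 95% counting intervals) for members that overlap no other gene and for 10 kb bins without genes, by GC content (x axis). Right, level of all members, overlapping ones included, in fragments per kb per 1000000 (log axis). It is drawn by distance from the nearest start of a gene of another family, with gene deserts as dashed lines. Both ratios decline with GC content, the members from 1.24 to 0.945, and the level declines with distance to other genes at both ages.

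Almost every cell held fragments in receptor genes. Of young cells, 99.02% (98.7 to 99.3) had at least 1 fragment in a member without overlap, with a median of 6 and a mean of 6.89 per cell, and of aged cells 99.6% (99.3 to 99.8), with a median of 7 and a mean of 8.20. After thinning of each cell to 5000 fragments, which left out 261 young and 280 aged cells, the shares were 95.7% and 96.9%, the means 3.40 and 3.65, and the medians 3 and 3. The variance of the thinned counts was 1.19 times the mean in young and 1.22 times in aged cells. Before thinning, receptor genes held 6.86 young and 7.38 aged of each 10000 autosomal fragments.

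Among cells with a similar share of fragments in peaks, the interval of the ratio held 1 in 3 of 4 bands. The peaks behind this share may differ between the libraries, as described with the processing. In cells with under 75% in peaks, members had 11.7 young (11.3 to 12.1) and 11.5 aged (11.04 to 11.9) fragments per 10000, a ratio of 0.980 (0.929 to 1.034). Between 75 and 80% in peaks, the ratio was 0.990 (0.957 to 1.024), between 80 and 85% it was 1.03 (1.005 to 1.049), and at 85% or more it was 1.03 (0.954 to 1.106). With the 15 overlapping members included, the 4 bands had 0.982, 0.993, 1.03 and 1.07 (0.998 to 1.137). These bands held 180, 645, 3017 and 1045 young cells and 179, 999, 2082 and 145 aged cells. Desert fragments were more frequent in aged cells of each band, with 59.7 against 65.4, 38.2 against 44.7, 32.2 against 39.8 and 28.2 against 33.5 per 10000.

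**Figure D3:**
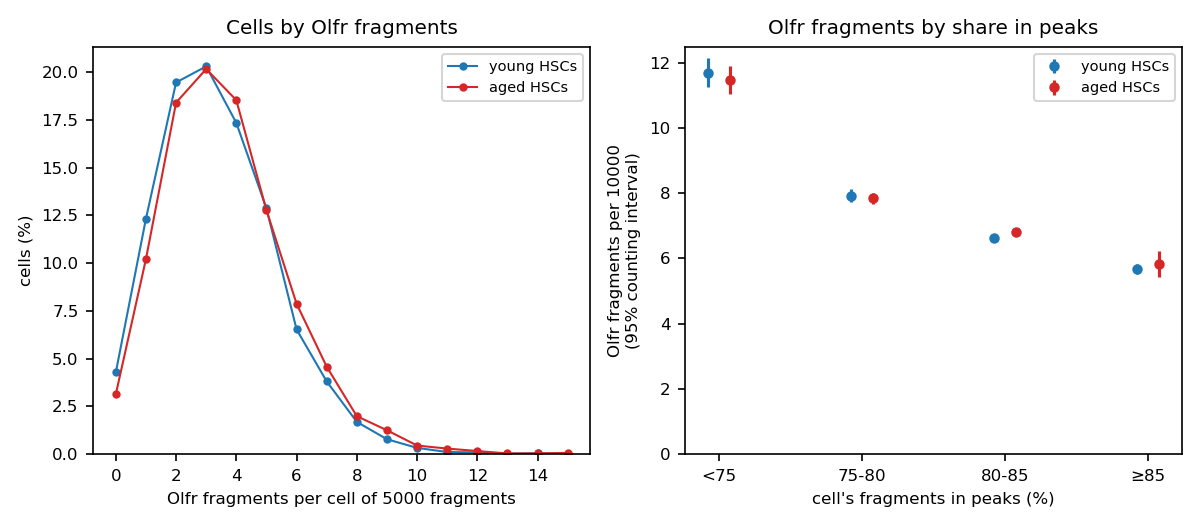
Left, percent of cells (y axis) by number of fragments in members after thinning to 5000 fragments per cell (x axis), for young and aged HSCs. Right, fragments in members per 10000 fragments (y axis, 95% counting intervals) by the share of the fragments of a cell that lie in peaks (x axis). The distributions differ by a small shift, from a mean of 3.40 to 3.65, and the paired points lie close to each other in each band.

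Single members varied in both directions. Of the 509 members with at least 30 fragments in both libraries together, 86 had a level over 1.5-fold higher in aged HSCs and 35 over 1.5-fold lower. That was 16.9% and 6.88% of them, against 3.73% and 1.04% of 18909 autosomal protein-coding genes with that many fragments. On the scale of desert fragments, 29 were higher and 122 lower, or 5.70% and 23.97%, against 1.19% and 8.40% of all such genes. Among genes with 30 to 99 fragments, where counting error is large, 73 and 27 of 389 members passed, against 17.0% and 7.38% of all such genes, so the members were near the background there. Among genes with 100 or more fragments, 13 and 8 of 120 members passed, against 2.67% and 0.526% of all such genes, but the median depth was 175.5 fragments in these members and 2944 in all such genes. In narrower bands of depth the shares were closer to the background. From 100 to under 200 fragments, 8 and 7 of 66 members passed, or 12.1% and 10.6%, against 11.8% and 5.37% of all genes. From 200 to under 500 fragments, 4 and 1 of 34 passed, against 10.2% and 3.10%. With 500 or more, 1 and 0 of 20 passed, against 1.76% and 0.133%. The median log2 ratio of the 509 members was 0.11 (0.061 to 0.15), beside -0.062 over all genes with that many fragments and 0.11 over all genes with 30 to 99. On the scale of desert fragments this median of the members turned direction, to -0.24 (-0.28 to -0.19), beside -0.41 over all genes. Its interval held 0 with at least 100 fragments, at -0.012 (-0.061 to 0.068), and with long fragments, at -0.020 (-0.063 to 0.072). The same was so in cells with 80 to 85% in peaks, at -0.083 (-0.16 to 0.0073). The interval also held 0 with short fragments (-0.091 to 0.115), after thinning (-0.0060 to 0.151) and around the start alone (-0.041 to 0.307). The counting interval of the ratio lay above 1 for 50 members, below 1 for 27, and held 1 for 432. Intervals above 1 were found in 15.4% of all such genes and intervals below 1 in 33.8%. These shares are not matched for depth, on which the width of an interval depends. Only 30 to 99 fragments were found in 389 of the 509 members, against 1410 of the 18909 genes. The 619 members under 30 fragments were too shallow for a ratio of their own.

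Most large clusters were somewhat higher in aged HSCs. Of the 23 clusters with 10 or more members, 21 had a ratio above 1, with a median of 1.12, and the interval lay above 1 in 10 clusters, held 1 in 13 and lay below 1 in none. With the whole span of each cluster counted, other genes included, it lay above 1 in 17 and below 1 in 3. Set against the gene deserts, 12 intervals lay below the desert ratio of 1.27, 10 held it and 1 lay above. The levels of the clusters ran from 0.0251 to 0.348 in young and from 0.0331 to 0.357 in aged HSCs, and the order of the clusters was nearly the same at both ages (Spearman's rho 0.964 over 23 clusters, a description). Clusters with more GC had higher young levels (rho 0.816, Pearson's r 0.479) and lower ratios (rho -0.57, r -0.23), with all clusters measured in the same 2 libraries.

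Among clusters of 10 or more members, the one with the highest ratio runs from Olfr522 to Olfr541 at the end of chromosome 7 (chr7:140159999-140705606) with 19 members. It had 624 young and 794 aged fragments, a ratio of 1.65 (1.483 to 1.834), and its level was 0.0622 and 0.103. In the member windows, this ratio rests on Olfr45 and Olfr530, which are described further below. Without them, the other 17 members had 468 and 402 fragments and a ratio of 1.11 (0.972 to 1.275), near the median of the large clusters. The ratio was highest in a few places of the cluster. There, 8 open bins outside other genes, defined further below, had 330 young and 743 aged counts, a ratio of 2.92 (2.560 to 3.332). The other bins of the cluster had 1.43 (1.319 to 1.547), against 1.13 over all cluster spans. With its whole span counted, other genes included, the cluster had 1271 and 1740 fragments, a ratio of 1.77 (1.650 to 1.909). Next came the cluster from Olfr458 to Olfr47 on chromosome 6 with 20 members, with 430 and 476 fragments and a ratio of 1.43 (1.257 to 1.638), and the cluster from Olfr310 to Olfr292 on chromosome 7 with 15 members, with 176 and 184 fragments and a ratio of 1.36 (1.096 to 1.676).

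The largest cluster of the genome, with 227 members from Olfr987 to Olfr1274-ps (chr2:85330779-90403897), had 2741 young and 2638 aged fragments, a ratio of 1.25 (1.182 to 1.316), and levels of 0.0315 and 0.0393, among the lowest of the large clusters. The cluster of 95 members on chromosome 9 from Olfr160 to Olfr986 was like it, with 1487 and 1424 fragments, a ratio of 1.24 (1.153 to 1.336) and levels of 0.0394 and 0.0489. The cluster from Olfr543 to Olfr649 on chromosome 7 (chr7:102476579-104195985) surrounds the beta-globin genes and holds class I receptors, the family that resembles receptors of fish, which continue in the next cluster. Its 95 members held 6105 and 4984 fragments, with a ratio of 1.06 (1.019 to 1.099) and levels of 0.155 and 0.164. In that next cluster, the 34 members from Olfr651 to Olfr692 held 1204 and 1007, with a ratio of 1.08 (0.996 to 1.180) and levels of 0.0891 and 0.0965. The most accessible large cluster ran from Olfr56 to Olfr1380 on chromosome 11, at 0.348 and 0.357 with a ratio of 1.02 (0.985 to 1.064), and held 9 other genes. Its rank rests on Olfr56. Without that gene, the 18 other members had 727 and 497 fragments, levels of 0.0771 and 0.0683 and a ratio of 0.886 (0.789 to 0.994). The lowest ratio among clusters of 10 or more members was that of the 21 members from Olfr30 to Olfr311 on chromosome 11, with 835 and 636 fragments and 0.987 (0.889 to 1.096), a difference within counting error.

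**Figure D4:**
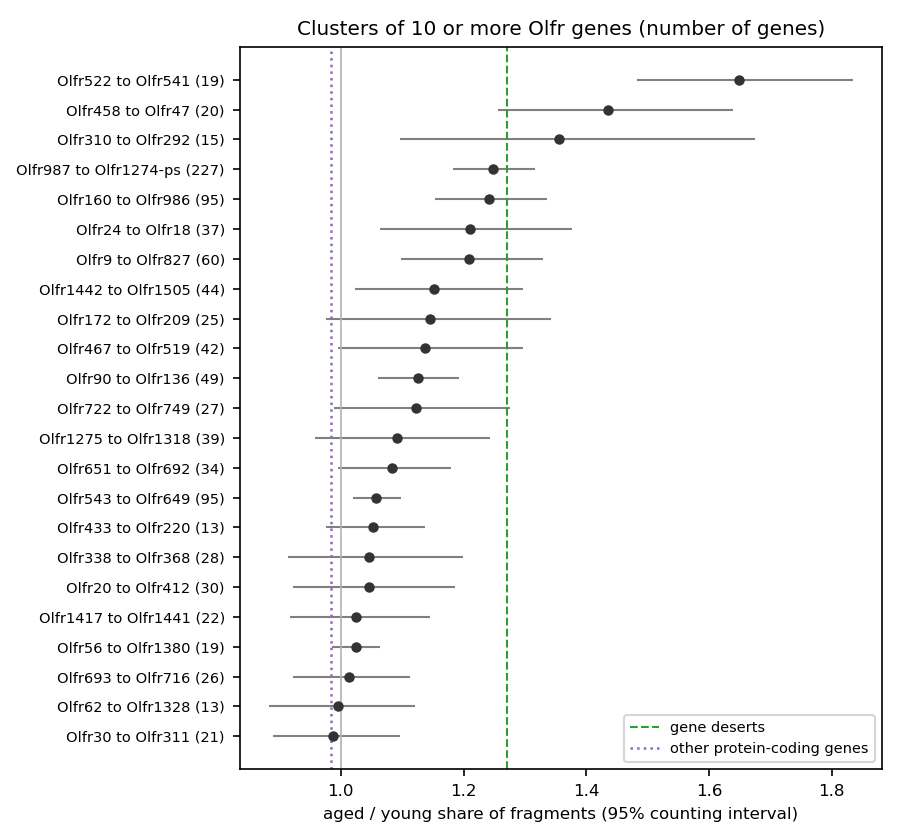
Ratio of aged to young share of fragments (x axis) with 95% counting intervals for the 23 clusters of 10 or more members, named by their first and last member with the number of members, and with gene deserts and other protein-coding genes as vertical lines. The cluster from Olfr522 to Olfr541 lies at 1.65, beyond the desert line, and at 1.11 without Olfr45 and Olfr530, which is not drawn, and no interval of the member windows lies wholly below 1.

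Small clusters and single genes spread more widely. The 6 members from Olfr16 to Olfr418 on chromosome 1 had 173 young and 235 aged fragments, a ratio of 1.76 (1.441 to 2.155), and Olfr520 with Olfr521 on chromosome 7 had 278 and 326, a ratio of 1.52 (1.291 to 1.790). In the other direction, Olfr222 with Olfr223 on chromosome 11 had 246 and 122, a ratio of 0.643 (0.513 to 0.802). The single gene Olfr15 on chromosome 16 had 423 and 224, a ratio of 0.686 (0.581 to 0.809), and the 6 members from Olfr70 to Olfr155 on chromosome 4 had 596 and 339, a ratio of 0.737 (0.643 to 0.844). These units were named after their values were seen.

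The most accessible members differed in how far their fragments lay in 1 place. Over the 10 with the highest levels, the 500 bp bin with the most fragments held from 37.1% to 80.1% of the young counts of the window. Olfr646, a class I receptor gene (chr7:104104873-104109766), had the highest level, with 1259 young and 965 aged fragments and levels of 3.72 and 3.70. The log2 ratio was -0.0092 (-0.13 to 0.11). The 500 bp bin with the most fragments, which contains most of the first sequence above, held 67.7% of the young and 62.7% of the aged counts of the window. Olfr750 on chromosome 14 was similar, with 774 and 588 fragments, levels of 1.56 and 1.53, and 61.0% and 59.0% of its counts in 1 bin. Olfr658 on chromosome 7, with levels of 1.31 and 1.29, held 80.1% and 78.4% in 1 bin, and Olfr552, Olfr1509 and Olfr1373 held 66.9%, 70.4% and 75.3% of their young counts in 1 bin. The shares were lower in Olfr459, with 55.3% and 52.8%, Olfr433, with 47.6% and 47.7%, Olfr94, with 43.0% and 43.9%, and Olfr90, with 37.1% and 43.3%.

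Of the 10 members with the highest levels, 8 had a counting interval that held equality. Levels were 1.70 and 1.78 for Olfr90, 1.58 and 1.51 for Olfr433, which lies 8895 bp from the start of the interferon-inducible gene Ifi205, 1.13 and 1.29 for Olfr94, 1.201 and 1.189 for Olfr552, and 1.01 and 1.07 for Olfr1373. The exceptions were Olfr459 and Olfr1509. Olfr459 on chromosome 6 (chr6:41768770-41775177) had 414 young and 463 aged fragments, levels of 1.004 and 1.455, and a log2 ratio of 0.54 (0.34 to 0.73). Its top bin and the rest of its window moved alike, with a log2 ratio of 0.51 in the bin and a ratio of 1.57 (1.314 to 1.874) in the rest. In the densest 300 bases there, 13 of 251 runs of 50 bases occur elsewhere on the autosomes as well. Olfr1509 had 733 and 486 fragments, levels of 1.29 and 1.11, and a log2 ratio of -0.22 (-0.39 to -0.051).

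Among members with at least 100 fragments, the highest ratios were those of Olfr592, Olfr45 and Olfr448. Olfr592, a class I receptor gene on chromosome 7, had 73 young and 169 aged fragments, levels of 0.146 and 0.439, and a log2 ratio of 1.57 (1.18 to 2.002). Its top bin, in an exon 6.95 kb from the start, had 28 and 82 counts, and the rest of the window was higher as well, with a ratio of 2.44 (1.769 to 3.397). Olfr45, in the cluster from Olfr522 to Olfr541, had 151 and 339 fragments, levels of 0.182 and 0.530, and a log2 ratio of 1.54 (1.26 to 1.83). The 300 bases of the Olfr45 element printed above held 105 young and 251 aged fragments. Olfr448 on chromosome 6 had 34 and 72 fragments and a log2 ratio of 1.43 (0.85 to 2.09), with the difference spread over its window. Olfr148 with 44 and 67 fragments (log2 ratio 0.97) and Olfr1226 with 57 and 85 (log2 ratio 0.94) completed the 5. The limit of 100 holds for the sum of both libraries. Olfr448 and Olfr148 reached it only through their higher aged counts, so their ratios had to be high. Olfr530, also in the cluster from Olfr522 to Olfr541, had too few fragments for this rule. Its 7 young and 59 aged fragments gave a log2 ratio of 3.28 (2.32 to 4.83), the highest among members with at least 30 fragments. It passed that limit only through its aged fragments, so its ratio had to be high, and it was singled out after its value was seen.

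The lowest ratios were smaller in size. Olfr1381 on chromosome 11 had 72 young and 33 aged fragments and a log2 ratio of -0.73 (-1.39 to -0.14). Olfr1420 on chromosome 19 had 109 and 51 with a log2 ratio of -0.71, Olfr1416 on chromosome 1 had 119 and 56 with -0.70, Olfr370 on chromosome 8 had 68 and 32 with -0.69, and Olfr464 on chromosome 11 had 103 and 50 with -0.65. All 5 intervals lay below equality, and in each of the 5 windows the ratio was also below 1 outside the top bin. Olfr1381 and Olfr370 reached the limit on the sum of both libraries only through their higher young counts, so their ratios had to be low. In Olfr1416 the top bin had 70 and 57 counts, a log2 ratio of 0.082, while the rest of the window had a ratio of 0.683 (0.512 to 0.905).

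The receptor genes beside the beta-globin genes differed from each other in level and direction. Beta-globin genes, which are active in erythroid cells, lie inside the cluster from Olfr543 to Olfr649. Olfr67 lies 20.7 kb from Hbb-bt and had 81 young and 80 aged fragments, levels of 0.179 and 0.229, and a ratio of 1.28 (0.928 to 1.765). Olfr66 lies 26.2 kb from Hbb-y and had 34 and 28, and Olfr64 had 26 and 25. Olfr65 had 90 and 98, levels of 0.256 and 0.361, and a ratio of 1.41 (1.049 to 1.900). Olfr68 had 27 and 9, a ratio of 0.432 (0.179 to 0.946), and Olfr69 beside it had 24 and 27, a ratio of 1.46 (0.810 to 2.640). The level of Olfr65 lay above the 95th percentile of the members at both ages, and 4 of the 6 intervals held 1.

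Of the receptors best known from work in the nose, none stood out except Olfr544. Olfr544, a class I receptor for azelaic acid, had 175 young and 181 aged fragments, levels of 0.431 and 0.577, and a ratio of 1.34 (1.083 to 1.660). Olfr78, a class I receptor for short-chain fatty acids that is also active in the carotid body, had 126 and 97 fragments and levels of 0.112 at both ages. Olfr1507, known as MOR28, had 72 and 59, and Olfr2, known as I7, had 52 and 27 with a ratio of 0.673 (0.406 to 1.091). Olfr16 (MOR23) had 26 and 33, Olfr160 (M72) 19 and 23, Olfr17 (P2) 19 and 7, and Olfr73 (mOR-EG) 9 and 2. The intervals of these 7 held 1, and fragments of the last 4 were too few for a level to be read with any precision.

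Open elements inside the clusters were then counted in bins of 500 bp. A bin was called open where the mean of both libraries was at least 0.5 fragments per 1000000. A fragment with ends in 2 bins counts in both. Of 57561 bins in the spans of the 47 clusters, 676 were open, or 1.17%, against 6.57% of all autosomal bins and 0.539% of bins in gene deserts. The 5 with the highest mean level were promoters of other genes inside the spans, 2 neighbouring bins at Osbp and 1 each at Mgat1, Zfp317 and Zfp91. Their young levels ran from 32.2 to 41.9 fragments per 1000000, and their log2 ratios from -0.32 to -0.088. Of the 676, 262 lay in windows of other genes and 414 did not. Of the 414, 138 lay in member windows, 276 between members, and 21 had their centre within 500 bp of the start of a member. They were found in 35 of the 47 clusters, with 90 in the cluster from Olfr543 to Olfr649 alone.

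Over the cluster spans, the ratio was lower in open than in closed bins. The 414 open bins had 44611 young and 36862 aged counts, a ratio of 1.07 (1.056 to 1.086), and the other bins outside other genes had 74959 and 65382, a ratio of 1.13 (1.119 to 1.142). In the windows of all members, single genes outside the clusters included, 157 open bins outside other genes had 1.07 (1.045 to 1.097). The other bins of these windows had 1.09 (1.074 to 1.110), with intervals that overlap. Over all autosomes the ratios were 1.001 in open and 1.06 in closed bins, and in gene deserts 1.30 and 1.28. Of the 414 bins, 85 were over 1.5-fold higher and 23 over 1.5-fold lower in aged HSCs, against 13.5% and 5.81% of all open autosomal bins.

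The 5 open bins with the highest levels outside other genes differed little or in opposite directions. The bin upstream of Olfr646 had 1046 young fragments in 914 cells and 751 aged fragments in 665 cells, with a log2 ratio of -0.10 (-0.24 to 0.033). A bin at chr7:104169501-104170000, at -4.92 kb from the start of Olfm5, had 1101 and 697, a log2 ratio of -0.28 (-0.42 to -0.15). A bin at chr7:102516501-102517000, at -17.2 kb from the start of Olfr545, had 713 and 656, a log2 ratio of 0.25 (0.099 to 0.41). The remaining 2 had 802 and 594 on chromosome 13, in an exon of the transcribed pseudogene Zfp389, and 714 and 505 on chromosome 19, 46.3 kb from the start of Osbp.

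Ratios of some single open bins were larger. The bin at chr1:173037501-173038000, which contains the second sequence above, had 17 young fragments in 17 cells and 139 aged fragments in 129 cells, a ratio of 10.6 (6.385 to 18.713). Within 2 kb on either side, 16 young and 53 aged counts were found. On chromosome 14, at -54.1 and -54.6 kb from the start of Olfr31, a pair of adjacent bins had 24 and 82 and then 40 and 120 fragments, with ratios of 4.43 (2.781 to 7.300) and 3.89 (2.698 to 5.710). In the cluster from Olfr522 to Olfr541, the bin at chr7:140186501-140187000 had 54 and 150, a ratio of 3.60 (2.621 to 5.010), while its flanks had 116 and 111. The lowest ratio was that of the bin at the fourth sequence above, with 86 young and 33 aged fragments, a ratio of 0.497 (0.322 to 0.751), in 85 young and 32 aged cells. These bins were the extremes among 219 open bins with at least 100 fragments, so their size is a description. The bin on chromosome 1 and the first of the pair on chromosome 14 had young levels of 0.347 and 0.489 fragments per 1000000, under the limit of 0.5, and counted as open only through the aged library, so they had to be higher there. The limit of 100 fragments holds for the sum of both libraries. All the bins named here for a higher ratio reached it only through their aged counts, so their ratios had to be high. The bin with the lowest ratio reached it only through its young counts, so its ratio had to be low.

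**Figure D5:**
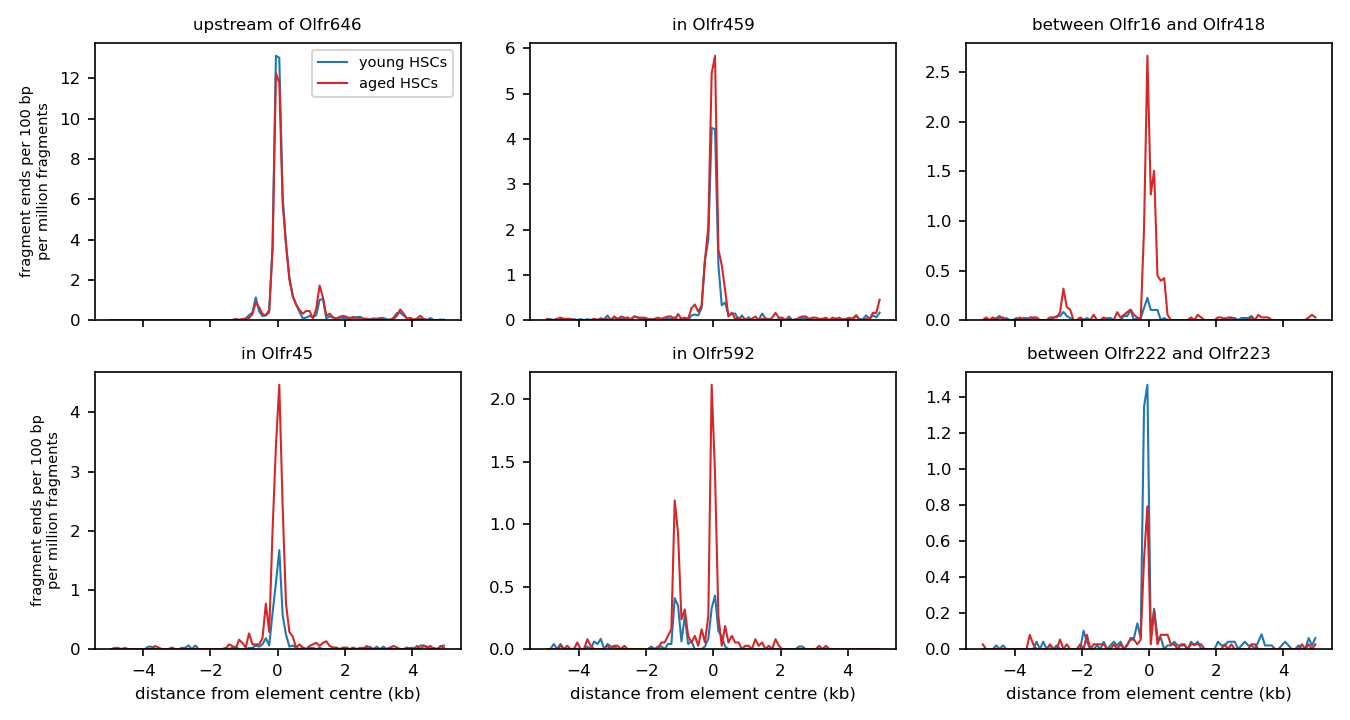
Fragment ends per 100 bp per 1000000 fragments (y axis) within 5 kb of the centre of 6 elements (x axis), in young and aged HSCs. The peak upstream of Olfr646 has a similar height at both ages, those in Olfr459, Olfr45, Olfr592 and in the cluster from Olfr16 to Olfr418 are higher in aged HSCs, and the one between Olfr222 and Olfr223 is lower.

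Sequence windows at the receptor genes were searched for motifs. RefSeq (GRCm38.p6) gave 929 windows, from 250 bases before to 50 bases after its start of a gene, for 926 of the 1128 members. For most members the RefSeq start is not that of GENCODE. It lay within 500 bp of the annotated gene start in 178 windows, or 19.2%, with a median distance of 2.73 kb over the 929. Of 18245 windows of other autosomal genes with an annotated start, 76.5% lay within 500 bp of it. Motifs are therefore given for the 178 member windows and 13961 windows of other genes at annotated starts.

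At these starts, the median GC content was 36.7% in members and 58.7% in other genes. TATAAA was present in 34.8% (27.9 to 42.3) of the member windows and 10.6% of the others. TAATTA, which homeodomain factors such as Lhx2 bind, was present in 21.3% (15.6 to 28.1) against 3.37%. CCCNNGGG, a core of the Ebf motif, was present in 10.7% (6.55 to 16.2) against 17.0%, whose intervals were separate. For GATA factors, GATAAG was found in 7.87% (4.37 to 12.8) against 6.25%. For RUNX factors, TGTGGT was found in 20.8% (15.1 to 27.5) against 13.95%. For the AP-1 complex, the palindrome TGANTCA was found in 11.8% (7.45 to 17.5) against 6.42%. For the factor PU.1, GAGGAAGT was found in 1 member window, or 0.562% (0.0142 to 3.09), against 3.43%. The CTCF motif was found in 0 of the 178 member windows, which allows a share of up to 2.05%, and in 0.645% of the others. In the 751 member windows away from annotated starts, TATAAA was present in 42.6%, TAATTA in 18.1% and CCCNNGGG in 9 windows. The other bins of the cluster spans, described further below, had a median GC content of 38.3%. They held TATAAA in 33.8% and TAATTA in 12.5% of windows. The interval at annotated member starts held this value for TATAAA and lay above it for TAATTA. In member windows away from annotated starts, both shares were above these values. Both strands were searched and no motif contains another.

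Open bins of the clusters were closer to open bins elsewhere in some features of sequence and to the other bins of the spans in others. In the central 300 bases, the 414 bins had a median GC content of 43.3%, between 38.3% in the other bins of the spans and 47.7% in all open autosomal bins. GAGGAAGT was found in 4.35% (2.60 to 6.78), 1.56% and 3.60% of these sets, TGTGGT in 23.7% (19.7 to 28.1), 18.5% and 22.9%, and the CTCF motif in 1.21% (0.393 to 2.80), 0.0335% and 1.30%. GATAAG was found in 12.1%, 12.3% and 9.09%, and CCCNNGGG in 5.31%, 2.90% and 9.72%. The mean number of CG pairs per window was 3.32, 1.63 and 5.75. In these features the 414 bins lay nearer to the other bins of the spans. Bases masked as repeats in the reference made up 24.4% of the 414 windows, 47.1% of the other bins of the spans and 18.3% of all open bins. A match is a description and not evidence of binding.

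Receptor genes have close relatives, and fragments that could come from several copies may be lost or misplaced. Of all runs of 50 bases in member windows, 8.55% occur more than once on the autosomes, with a median of 4.28% per member. The 620 members with under 5% repeated runs had a ratio of 1.06 (1.042 to 1.087), the 412 with 5 to 20% had 1.09 (1.064 to 1.116), and the 96 with 20% or more had 1.04 (1.007 to 1.077). The symbol Olfr290 belongs to 2 annotated genes, both counted as members.

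Genes that act with the receptors were near the background of 3.73% higher and 1.04% lower over all genes. All 15 genes of olfactory transduction and receptor transport had at least 30 fragments, and none was past 1.5-fold in either direction, with a median log2 ratio of -0.073. Levels were 0.900 and 0.749 for Adcy3, the adenylate cyclase of the olfactory cascade, 0.536 and 0.427 for Omp, the olfactory marker protein, and 0.152 and 0.197 for Cnga4, a subunit of the olfactory ion channel. Ano2, a calcium-activated chloride channel, had the highest log2 ratio, 0.43 (0.35 to 0.51). Likewise 0 of 22 genes of receptor gene choice and heterochromatin were past 1.5-fold, with a median of -0.13 over the list. Among them, Lhx2 had levels of 1.86 and 1.96, Ebf1 0.236 and 0.260, Lbr, the lamin B receptor of the inner nuclear membrane, 1.93 and 1.72, and Setdb1, an H3K9 methyltransferase, 0.657 and 0.593.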

How the data were processed

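Single-cell ATAC-seq libraries of young and aged HSCs were analysed, 1 per age, with 2 libraries in all. The study pooled bone marrow of several mice before sorting in its main experiment, and whether this holds for these libraries is not given in the sources used here. The authors deposited fragment tables, in which each row is a unique fragment with its barcode and a count of read pairs, and tables of counts per barcode. The submitters' processing notes name mm10, Cell Ranger ATAC and Signac. Doublets were not called or removed here, and 28 called barcodes occur in both libraries. The peaks were not used except through the count of fragments in peaks of each barcode. According to its methods, the study called peaks with Cell Ranger ATAC and made combined peak regions later, for integration. The deposited counts of the 2 libraries may therefore rest on different peaks.

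Fragments of used cells were counted once in a window that held at least 1 of their ends and divided by window length and by the autosomal fragments of the library. Log2 ratios used a pseudocount of 1 fragment. Intervals are exact binomial (ratios, shares), exact Poisson (levels) or from order statistics (medians) at 95% and cover counting error alone. Counting was tested on simulated data. Gene deserts were gaps of at least 500 kb without a gene, trimmed by 50 kb at each end. Python 3.11.15, NumPy 2.4.6, SciPy 1.17.1 and matplotlib 3.10.9 were used.

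Named members were the 10 with the highest level, the 5 with the highest and the 5 with the lowest ratio among those with at least 100 fragments, 6 neighbours of the beta-globin genes, and well-studied receptors. Olfr151 was on that list but is not annotated as protein-coding and was left out. Named clusters had at least 10 members, and the named bins were the 5 open bins with the highest level. Other units and bins were named after their values were seen, as the text says. The members and lists were chosen with earlier results of these data known. With 1 library per age, no test was made. Alternatives changed the scale, window, filter, pseudocount, fragment length and cells, and 3 bands of cells by their share in peaks, a pair of clusters without their leading members, narrower bands of depth, and starts on which annotations agree were added after seeing the data.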

Additional observations from a re-analysis of the deposited data

How the results depend on the processing

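Of 80 alternative values for 13 results, 38 moved by less than their counting interval, or by less than 1.5 times for counts, and 35 moved by more. The other 7 changed direction from a value whose interval had lain off equality. Of these 7, only the values on the desert scale had an interval wholly on the other side, while the intervals of the rest held equality. The cause was not tested. The summed ratio of 1.07 was 0.843 per 1000000 desert fragments, 1.10 per 1000000 in-peak fragments and 1.03 with long fragments, at or above the length of nucleosomal DNA. It was 0.982 in cells with under 75% in peaks, 0.993 with 75 to 80%, 1.03 with 80 to 85% and 1.07 (0.998 to 1.137) with 85% or more. The median log2 ratio per gene of 0.11 was -0.24 on the desert scale, -0.012 with at least 100 fragments, -0.020 with long and 0.034 with short fragments, -0.083 in cells with 80 to 85% in peaks, 0.022 around the start alone, 0.17 with no filter and 0.044 after thinning.

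Of 509 members, 86 were over 1.5-fold higher and 35 lower, and most alternatives also changed how many members could be counted. The higher ones were 29 of 509 on the desert scale, where 1.19% of all genes passed, 57 of 353 for the gene body (3.58%), 12 of 60 for the start (4.21%), 13 of 120 with at least 100 fragments (2.67%), 275 of 1128 with no filter (6.06%) and 24 of 509 at 2-fold (0.973%). They were 25 of 149 with short (3.498%) and 33 of 308 with long fragments (2.44%), 36 of 235 in cells with 80 to 85% in peaks (2.95%) and 28 of 186 after thinning (3.43%). As shares of the members, these ran from 4.72% at 2-fold and 5.70% on the desert scale to 24.4% with no filter, beside 16.9%. The lower ones were 122 of 509 on the desert scale (8.40% of all genes), 3 of 60 for the start (2.25%), 8 of 120 with at least 100 fragments (0.526%), 104 of 1128 with no filter (2.08%), 8 of 509 at 2-fold (0.169%) and 17 of 186 after thinning (1.14%). With short fragments 25 of 149 were lower (1.69% of all genes), with long fragments 26 of 308 (1.14%), and in cells with 80 to 85% in peaks 35 of 235 (1.99%), so that higher and lower members were about as many with short fragments and in those cells. The density over deserts of 1.74 in young and 1.47 in aged HSCs was 2.64 and 1.94 with deserts of at least 1000 kb, 1.51 and 1.28 without overlapping members, and 1.29 and 1.12 between members. Without Olfr45 and Olfr530, the ratio of the member windows in the cluster from Olfr522 to Olfr541 was 1.11 in place of 1.65. Without Olfr56, that of its cluster was 0.886 in place of 1.02, whose interval held 1. With whole spans, 17 in place of 10 large clusters had an interval above 1 and 3 below. Open bins numbered 1136 at a level of 0.25 and 428 at 1, where their ratio outside other genes was 1.05.

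No paired analysis was possible because each age has 1 library, and for the same reason no replicate could be left out. Age, library and depth cannot be told apart. The median member had 14 young and 13 aged fragments, and among the 509 with at least 30 fragments in both libraries together the interval of the ratio held 1 for 432, so a difference was not detectable in them at this depth.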

Other observations

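Vomeronasal receptor genes, which encode pheromone receptors of the vomeronasal organ and also lie in silent clusters, were measured in the same way. The 329 genes had 11541 young and 10341 aged fragments, levels of 0.0401 and 0.0466 fragments per kb per 1000000, and a ratio of 1.16 (1.131 to 1.193). Of the 186 with at least 30 fragments, 48 were over 1.5-fold higher and 3 over 1.5-fold lower in aged HSCs, or 25.8% and 1.61%, against 3.73% and 1.04% of all genes with that many fragments. Among those with 30 to 99 fragments, 37 and 3 of 134 passed, against 17.0% and 7.38% of all such genes. The median log2 ratio of the 186 was 0.24. Fragment ends at their GENCODE starts were 6.44 times as dense as in the flanks in young and 5.17 times in aged HSCs.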
